A study of Mus musculus with 10 samples.

Results

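The genes described here are 35 genes of fatty acid uptake and oxidation, read out by RNA sequencing of 10 mouse hearts taken at 6 weeks. They were chosen by function from textbook knowledge, with earlier results of these data known, and make up 35 of the 24537 genes counted. All 35 were found and all passed the filter on low counts. They were sorted into 7 roles, namely uptake (5 genes), activation (4), the carnitine shuttle (3), acyl-CoA dehydrogenases (8), the later steps of the matrix spiral (8), electron transfer (3), and peroxisomal enzymes together with a thioesterase (4). The 5 Control mice (Rosa26-rtTA2+/-;TRE-SOD2-shRNA-/-) and the 5 iSOD2 mice (Rosa26-rtTA2+/-;TRE-SOD2-shRNA+/-) all carried 1 copy of the tetracycline transactivator, and the iSOD2 mice also carried 1 copy of a hairpin RNA against Sod2. Dams, which were C57BL/6J, ate doxycycline chow from early pregnancy until birth, so both groups met the drug in utero and neither was given it afterwards. The transactivator was under the Rosa26 promoter and not limited to 1 cell type, so the embryonic knockdown was not confined to cardiomyocytes. The mice came from litters A and B, each genotype with 2 mice of A and 3 of B, and comprised 3 male and 2 female Control mice and 2 male and 3 female iSOD2 mice.

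The adult heart draws most of its energy from long-chain fatty acids. Lipoprotein lipase frees them from triglyceride in the capillaries, CD36 and the transport proteins carry them across membranes, and the acyl-CoA synthetases trap them as acyl-CoA, which enters mitochondria only after transfer to carnitine. In the matrix each turn of the spiral runs through an acyl-CoA dehydrogenase, a hydratase, a hydroxyacyl-CoA dehydrogenase and a thiolase, and the electrons taken by the dehydrogenases reach ubiquinone through the electron transfer flavoprotein. Peroxisomes shorten very long chains by a parallel route.

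Sod2, the target of the hairpin, was compared first. Its normalized counts (library counts divided by median-of-ratios size factors) were 10650, 10680, 11019, 10954 and 9562 in Control mice 1, 2, 3, 4 and 6, and 11064, 11305, 10116, 10695 and 10724 in iSOD2 mice 5, 7, 8, 9 and 10. The groups overlapped (log2 fold change 0.03, SE 0.05, adjusted p 0.806 by DESeq2), so the count at 6 weeks did not set the groups apart. Libraries held 16448090.5 to 24263085.5 counts in genes. The 35 genes took 1.63% ± 0.0767 of them in Control hearts and 1.67% ± 0.110 in iSOD2 hearts (SD, n = 5 each). The hearts had high counts of all 10 cardiomyocyte markers, including Myh6. Long genes had relatively more counts in 5 of 5 Control libraries and fewer in 5 of 5 iSOD2 libraries, with slopes of 0.00629 to 0.0527 against −0.0510 to −0.0180 (log2 deviation per log2 of length). Liver transcripts were present at levels that varied with the mouse, with Alb at 47.9 normalized counts in Control 1 and 14601 in iSOD2 10. The mean log2 level of 10 hepatocyte markers was 7.61 ± 1.92 in Control and 9.29 ± 0.611 in iSOD2 mice (SD, n = 5 each, two-sided exact permutation p 0.0476, adjusted over 6 marker lists 0.286).

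Promoter windows, from 250 bases before to 50 after the start site, were found for 26 of the 35 genes in the RefSeq set of build GRCm38.p6. The start region of Hadha and Hadhb is shown because the counts of the pair moved together across mice. It is followed by the windows of Eci1 and Echs1, which had adjusted p under 0.05 by genotype. Hadha (chr5:30118304-30154980, minus strand) and Hadhb (chr5:30155253-30184593, plus strand) are read outward from start sites 273 bases apart, and the 274 bases from chr5:30154980-30155253 (plus strand, 60.2% G and C) hold both starts, which are the capital letters at the ends of the first sequence. In the other windows, capitals mark AGGTCA, the single core site of nuclear receptors. Eci1 lies at chr17:24426683-24439316 and its window at chr17:24426433-24426732, both on the plus strand. Echs1 lies at chr7:140105723-140116423 and its window at chr7:140116372-140116671, both on the minus strand.
Hadha to Hadhb start region: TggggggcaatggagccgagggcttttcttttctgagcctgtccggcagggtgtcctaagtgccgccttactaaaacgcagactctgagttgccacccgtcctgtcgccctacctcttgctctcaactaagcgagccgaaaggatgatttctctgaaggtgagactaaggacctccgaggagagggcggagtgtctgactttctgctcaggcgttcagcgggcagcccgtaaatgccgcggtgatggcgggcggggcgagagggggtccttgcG
Eci1: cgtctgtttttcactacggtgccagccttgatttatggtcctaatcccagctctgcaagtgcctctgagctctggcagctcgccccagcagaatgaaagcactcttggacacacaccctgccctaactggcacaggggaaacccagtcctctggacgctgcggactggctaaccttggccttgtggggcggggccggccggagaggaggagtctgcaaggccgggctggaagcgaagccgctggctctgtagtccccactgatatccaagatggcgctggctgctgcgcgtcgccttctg
Echs1: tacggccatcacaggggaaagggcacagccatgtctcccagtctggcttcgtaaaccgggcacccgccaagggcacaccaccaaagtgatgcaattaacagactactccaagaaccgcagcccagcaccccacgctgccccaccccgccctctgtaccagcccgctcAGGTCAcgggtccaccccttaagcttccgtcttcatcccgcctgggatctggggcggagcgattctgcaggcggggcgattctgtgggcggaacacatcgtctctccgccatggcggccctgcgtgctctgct

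The windows were searched for 5 motifs on both strands. The motifs, and the sequences shown, were chosen after the values of these genes were seen. AGGTCA was in 4 of 26 member windows (Cd36, Acadm, Acadvl and Echs1, 15.4%) and in 16.3% of all 32841 windows of the same length. The next 2 motifs contain AGGTCA, so a window with one of them would count for both. DR1, in which AGGTCA stands 2 times in a row with 1 base between and which PPAR binds with RXR, was in 0 of 26 and in 0.0396% of all windows. TCAAGGTCA, bound by the estrogen-related receptors, was in 0 of 26 and 0.423%. The remaining motifs hold no such site. The CCAAT box, searched by those letters, was in 13 of 26 member windows (among them Cd36, Acsl1, Hadh and all 3 genes of electron transfer) and in 37.4% of all windows. The NRF1 site, bound by nuclear respiratory factor 1, was in 1 of 26 (Etfdh, 3.85%) and in 0.615% of all. In Echs1 the AGGTCA begins 83 bases before the start site. The RefSeq window of Cd36 lies 53063 bases from the start of the transcript that was counted, so it is another promoter of that gene.

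The comparison of genotypes asked whether fat oxidation genes differed at 6 weeks. DESeq2 called 0 of the 34 members that had an adjusted p, a call being an adjusted p of at most 0.05 with an absolute log2 fold change above 0.25, where 2.96% of 9479 tested genes were called. With the fold threshold dropped, 3 of 34 passed, namely Acot13, Eci1 and Echs1. All were higher in iSOD2 hearts, beside 6.09% of all tested genes, or 3.04% in that direction. At an unadjusted p under 0.05, 7 of 35 members passed, all higher, against 13.2% of all genes in either direction and 7.29% higher. The additional genes were Fabp3, Acads, Acaa2 and Acaa1a. Of the 35, 25 had a fold change above 0 and 10 below (49.5% of all genes above 0), with a median of 0.05 on the log2 scale and −0.01 over all tested genes. edgeR's quasi-likelihood test gave 0 members and 0 of 17728 genes at an adjusted p of 0.05, and 8 members at an unadjusted p under 0.05 (15.3% of all genes). The 95% interval of the log2 fold change lay within 0.25 of 0 for 21 members and above 0 for 7.

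**Figure D1:**
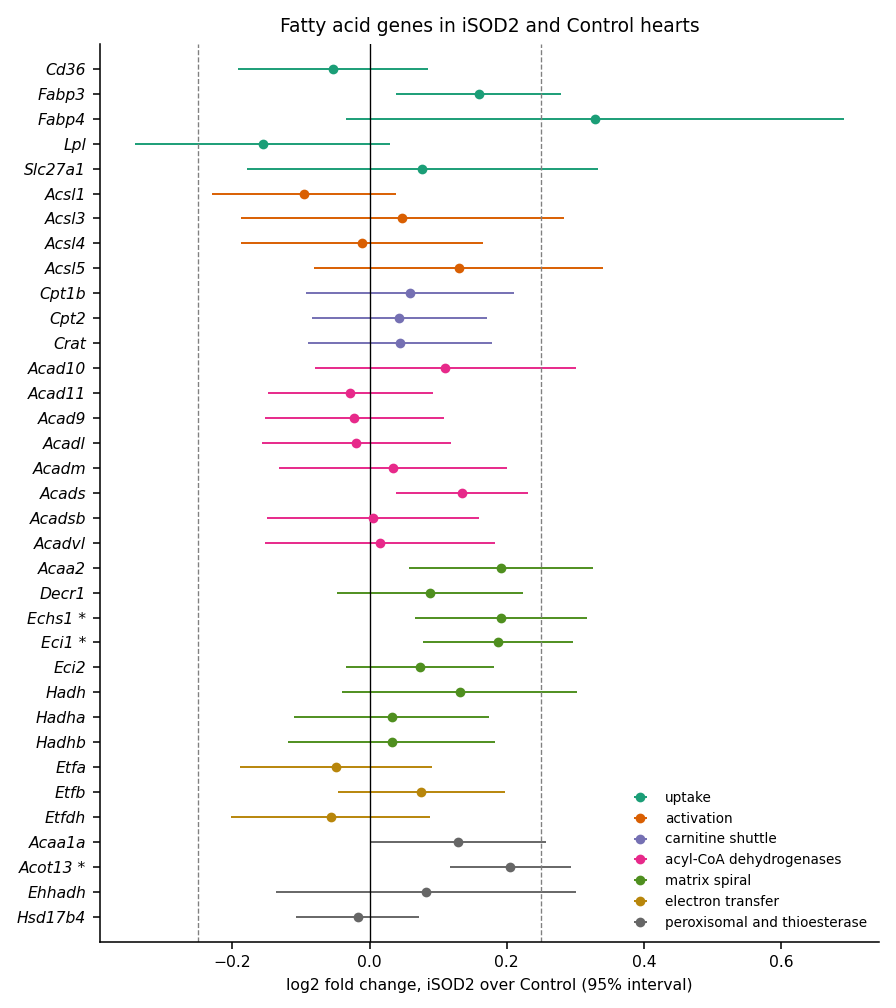
Log2 fold change of each gene, iSOD2 over Control, with its 95% interval (n = 5 mice each), coloured by role. An asterisk marks an adjusted p of at most 0.05 (Acot13, Eci1 and Echs1), and dashed lines mark the fold threshold of 0.25. All 8 genes of the matrix spiral lie to the right of 0, beside 49.5% of all genes (6 of 8 and 47% once the exon length trend is removed).

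Among the uptake genes Fabp3, the fatty acid binding protein of heart muscle, had normalized counts of 31830, 29830, 31827, 35846 and 30774 in Control mice and 35967, 38250, 32126, 36188 and 36234 in iSOD2 mice. Control 4 reached the range of the iSOD2 mice and iSOD2 8 that of the Control mice, so the groups overlapped. The log2 fold change was 0.16 (SE 0.06, adjusted p 0.10 by DESeq2). Fabp3 has 634 bases of exon, and after removal of the length trend described with exon length its fold change was 0.02 (adjusted p 0.963). Lpl, which encodes lipoprotein lipase, had the lowest fold change of the 35 (−0.16, SE 0.09, adjusted p 0.360), with 50781 to 65666 counts in Control and 46155 to 61984 in iSOD2 mice. Cd36, the membrane receptor for long-chain fatty acids, had −0.05 (SE 0.07, adjusted p 0.728), and Slc27a1, a transport protein with acyl-CoA synthetase activity, had 0.08 (SE 0.13, adjusted p 0.794). Fabp4, the binding protein of adipocytes and capillary endothelium, had the highest fold change and the widest interval of the 35 (0.33, SE 0.19, interval −0.03 to 0.69, adjusted p 0.309). It is described with sex.

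In the activation step Acsl1, the main long-chain acyl-CoA synthetase of heart, had 20833 to 24715 normalized counts in Control and 19899 to 24769 in iSOD2 mice (log2 fold change −0.10, SE 0.07, adjusted p 0.453 by DESeq2). Acsl5 had 0.13 (adjusted p 0.531) and Acsl4, an isoform that prefers arachidonate, −0.01 (adjusted p 0.967). Acsl3 was too scarce for an adjusted p (119 ± 12.7 against 124 ± 6.51, SD, n = 5 each, log2 fold change 0.05). Its counts are uncertain because Utp14b shares its first exons on the same strand, with 123.1 counts per library on average beside 123.35 for Acsl3. In the carnitine shuttle, Cpt1b, the muscle palmitoyltransferase of the outer membrane, had a log2 fold change of 0.06 (adjusted p 0.723), Cpt2, its partner on the inner membrane, 0.04 (0.767), and Crat, the carnitine acetyltransferase, 0.04 (0.772). The Cpt1b transcript lies inside that of Gm44502, a read-through from the neighbouring gene, which was given about the same counts (16013 and 16133 per library on average).

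Of the 8 acyl-CoA dehydrogenases 5 had a fold change above 0 and 3 below, with a median of 0.01. Acads, which acts on short chains, had normalized counts of 3249, 3114, 3100, 3340 and 3238 in Control mice and 3376, 3800, 3337, 3647 and 3468 in iSOD2 mice. Only Control 4 lay above the lowest iSOD2 mouse. The log2 fold change was 0.14 (SE 0.05, adjusted p 0.0740 by DESeq2). The very long chain enzyme Acadvl (0.02, adjusted p 0.949), the long chain enzyme Acadl (−0.02, 0.916) and the medium chain enzyme Acadm (0.03, 0.867) had 95% intervals within 0.25 of 0, as had Acadsb (0.01, 0.984), which acts on short branched chains, and Acad9 (−0.02, 0.894), known also as an assembly factor of complex I. Acad11 had −0.03 (adjusted p 0.848), and its counts are uncertain, since Ackr4 lies within it on the opposite strand. Acad10 had 0.11 (adjusted p 0.560).

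All 8 genes of the later spiral had a fold change above 0, with a log2 median of 0.11, beside 49.5% of all genes. After removal of the length trend described with exon length 6 of 8 did, beside 47%, the exceptions being Hadhb and Eci2. Hadh, Echs1, Eci1, Eci2 and Acaa2 are in the shortest class of exon length. In that class 84.1% of all genes were above 0 and 11.9% had an adjusted p of at most 0.05. Of the 8 genes, 2 had such an adjusted p and 0 were called by DESeq2 (6.09% and 2.96% of all tested genes). Eci1, the isomerase that prepares unsaturated chains for the spiral, had normalized counts of 3105, 3042, 2829, 3041 and 2695 in Control mice and 3409, 3616, 3182, 3306 and 3245 in iSOD2 mice. The 5 iSOD2 values lay above the 5 Control values, a separation that Acot13 alone shared among the members (2 of 34, 5.88%, against 5.71% of all tested genes, or 3.18% in that direction). Eci1 had a log2 difference of 0.19 (SE 0.06, adjusted p 0.0208 by DESeq2, edgeR adjusted p 0.124).

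Echs1, the short-chain enoyl-CoA hydratase, had 4124, 3956, 4035, 4497 and 3946 normalized counts in Control mice and 5244, 4942, 4409, 4451 and 4432 in iSOD2 mice. Control 4 lay above the 3 lower iSOD2 mice, and the log2 fold change was 0.19 (SE 0.06, adjusted p 0.0461 by DESeq2, edgeR adjusted p 0.163). With sex as a covariate, which the genotypes do not share equally, the adjusted p was 0.0782, with hepatocyte markers 0.108 and without independent filtering 0.0787. Acaa2, the mitochondrial thiolase, had 0.19 (SE 0.07, adjusted p 0.0677 by DESeq2), with 12348 to 14699 counts in Control and 14116 to 17623 in iSOD2 mice, and its adjusted p was 0.0229 with sex as a covariate (0.21). Hadh, the dehydrogenase for shorter hydroxyacyl chains, had 0.13 (adjusted p 0.415), Decr1, the dienoyl-CoA reductase, 0.09 (0.503) and Eci2, a second isomerase, 0.07 (0.478).

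Hadha and Hadhb encode the alpha and beta subunits of the trifunctional protein, which carries the last steps for long chains. Hadha had normalized counts of 27761, 27409, 25015, 26524 and 22812 in Control mice and 27190, 30194, 24191, 25962 and 24943 in iSOD2 mice. iSOD2 7 was highest and Control 6 lowest, and the rest of the 2 groups were mixed. The log2 fold changes were 0.03 (SE 0.07, interval −0.11 to 0.17, adjusted p 0.851 by DESeq2) for Hadha and 0.03 (SE 0.08, adjusted p 0.864) for Hadhb.

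The electron transfer genes stood on both sides of 0. Etfb had a log2 fold change of 0.08 (adjusted p 0.527 by DESeq2) and its partner subunit Etfa −0.05 (adjusted p 0.752). Etfdh, the dehydrogenase that passes their electrons to ubiquinone, had 11151, 10805, 10048, 10803 and 8981 normalized counts in Control mice and 10532, 10913, 8763, 10004 and 9588 in iSOD2 mice. The groups overlapped over most of their range, with a log2 fold change of −0.06 (SE 0.07, interval −0.20 to 0.09, adjusted p 0.723). The Etfb to Etfa ratio was 2.26 ± 0.155 in Control and 2.47 ± 0.174 in iSOD2 mice (SD, n = 5 each, two-sided exact permutation p 0.0714).

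Acot13 (chr13:24817955-24831489), a mitochondrial acyl-CoA thioesterase that releases free fatty acid from acyl-CoA, had the lowest adjusted p of the 35. Its normalized counts were 2165, 2146, 2139, 2349 and 2222 in Control mice and 2656, 2530, 2429, 2534 and 2561 in iSOD2 mice. Every iSOD2 mouse lay above every Control mouse. The log2 fold change was 0.21 (SE 0.05, interval 0.12 to 0.29, adjusted p 0.000837 by DESeq2), below the fold threshold, and edgeR's adjusted p was 0.0745. Within litter A the log2 ratio of the means was 0.20 and within litter B 0.21, and within males it was 0.24 and within females 0.16.

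Of the peroxisomal enzymes, Acaa1a, a thiolase, had a log2 fold change of 0.13 (adjusted p 0.243 by DESeq2), Ehhadh, the bifunctional enzyme, 0.08 (0.732) and Hsd17b4, the second multifunctional enzyme, −0.02 (0.875). Hsd17b4 was among the steadiest of the 35 across mice, at 1989 to 2210 counts, with a coefficient of variation of 3.59%. Acaa1a shares most of its sequence with Acaa1b, so reads could be divided between the pair.

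**Figure D2:**
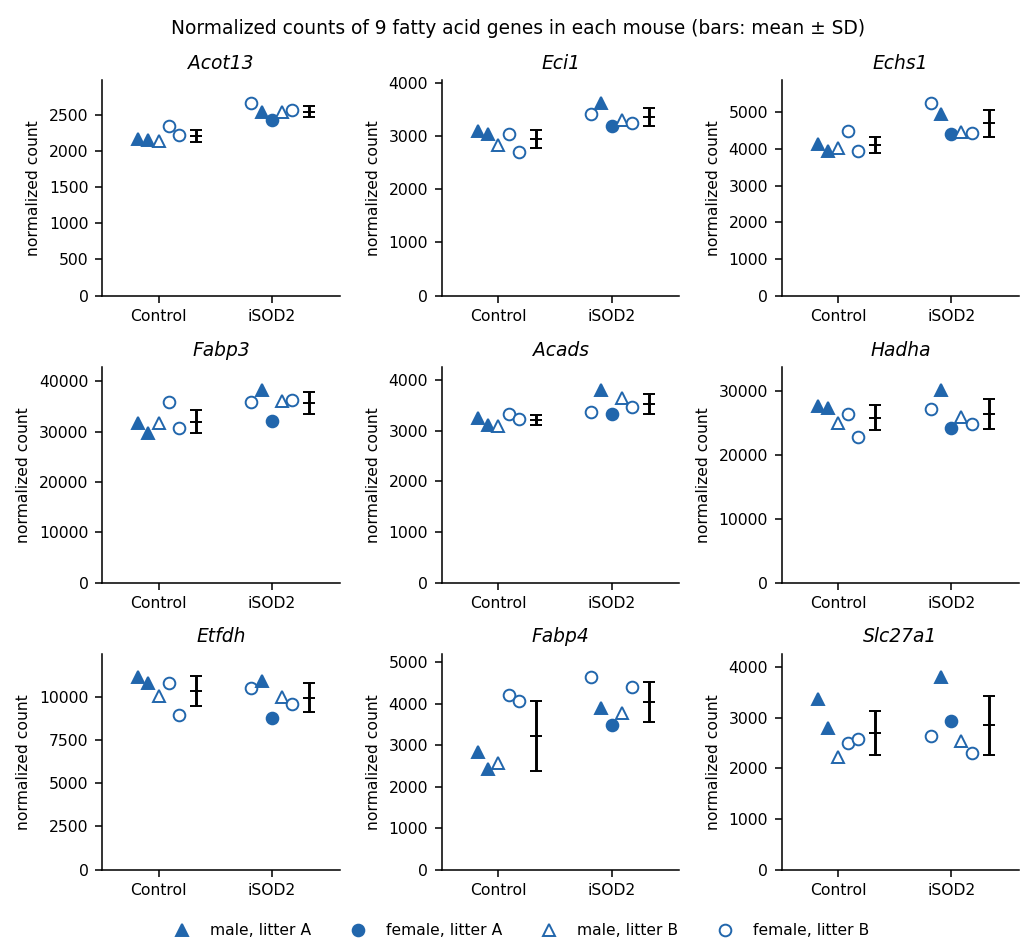
Normalized counts of 9 of the genes in each mouse (y axes start at 0), with triangles for males, circles for females, filled symbols for litter A and open ones for litter B, and bars for mean ± SD (n = 5). The groups stand apart for Acot13 and Eci1 and overlap for the others, the 3 Control males are the lowest for Fabp4, and litter A is higher than litter B for Slc27a1.

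Fold changes of the members followed exon length, which the authors' table gives for the transcript counted. Among the 11 members in the shortest of 5 equal classes of exon length, of at most 1792 bases, 10 had a fold change above 0 and the median was 0.16, while 84.1% of all 1897 genes in that class were above 0, with a median of 0.11. Over the classes from short to long the members had medians of 0.16, 0.02, 0.08, 0.01 and −0.01 (11, 8, 9, 6 and 1 genes), and all genes 0.11, 0.03, −0.02, −0.05 and −0.08. The 3 genes with an adjusted p under 0.05 all belong to the shortest class (Acot13 681 bases, Eci1 1082, Echs1 1481), where 11.9% of all genes had one. Across the 35 members, which are not independent replicates, Spearman's rho of fold change with exon length was −0.58, and it was −0.53 across the 9479 tested genes.

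After a smooth trend with exon length was removed from each library, DESeq2 gave 0 members with an adjusted p of at most 0.05 (1.09% of all genes). Acot13 then had a log2 fold change of 0.07 (adjusted p 0.531), Eci1 0.07 (0.796) and Echs1 0.09 (0.671). The additional genes that had passed at an unadjusted p under 0.05 had 0.02 (Fabp3, adjusted p 0.963), 0.06 (Acads, 0.782), 0.09 (Acaa2, 0.754) and 0.05 (Acaa1a, 0.925). Of the 35 members 22 were above 0 (47% of all genes), with a median of 0.05, and rho was −0.02. Since the 5 libraries of each genotype share their sign of length slope, the slope and the genotype cannot be told apart.

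**Figure D3:**
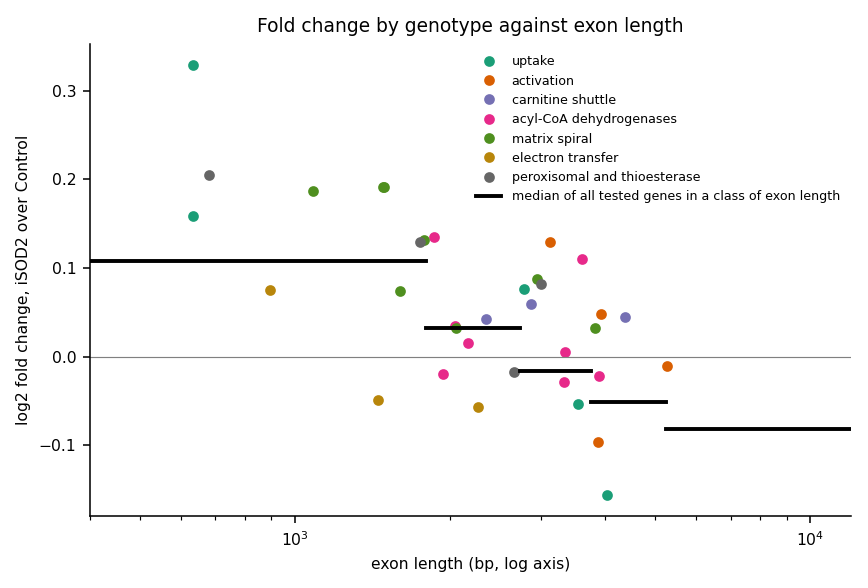
Log2 fold change, iSOD2 over Control, of the 35 genes (points, coloured by role) against exon length on a log axis. Black bars are medians of all tested genes in 5 equal classes of exon length, cut at the edges of the plot, and step down from 0.11 in the shortest class to −0.08 in the longest, with most points of short genes above 0.

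The levels of the genes, compared per kilobase of exon, spanned over 3 orders of magnitude. Fabp3 was highest, at 53450 ± 4575 normalized counts per kilobase (SD, n = 10), rank 14 of 17728 genes, and made up 29.1% of the summed level of the 35. Lpl followed at 14176 ± 1746, then Hadhb at 10616 ± 909, Etfb at 10015 ± 699 and Acaa2 at 9984 ± 1005. The ranges of Fabp3 and Lpl over mice did not overlap, whereas from Lpl down to Acads each gene's range overlapped that of the next. Acsl3 was lowest, at 31.0 ± 2.5. By role the uptake genes held 44.4% of the summed level, the later spiral 22.6%, the dehydrogenases 12%, electron transfer 9.33%, the shuttle 5.54%, activation 3.37% and the peroxisomal and thioesterase genes 2.66%.

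In 4 families of 5 a single gene held most of the level. Acsl1 held 95.2% ± 0.580 of the summed level of 4 Acsl genes (SD, n = 10), Cpt1b 91.3% ± 0.956 of 3 Cpt1 genes, Fabp3 89.6% ± 1.57 of 3 Fabp genes, and Slc27a1 85.7% ± 2.37 of 3 transport protein genes. The share of Cpt1b includes counts that Gm44502 was also given. Among 8 acyl-CoA dehydrogenases Acadvl held 33.3%, Acadm 28.7% and Acadl 21.1%, ahead of Acads at 8.23%. These shares differed little by genotype, with Acsl1 at 95.5% ± 0.407 in Control and 94.9% ± 0.640 in iSOD2 mice, and Cpt1b at 90.9% ± 1.27 and 91.6% ± 0.418 (SD, n = 5 each).

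**Figure D4:**
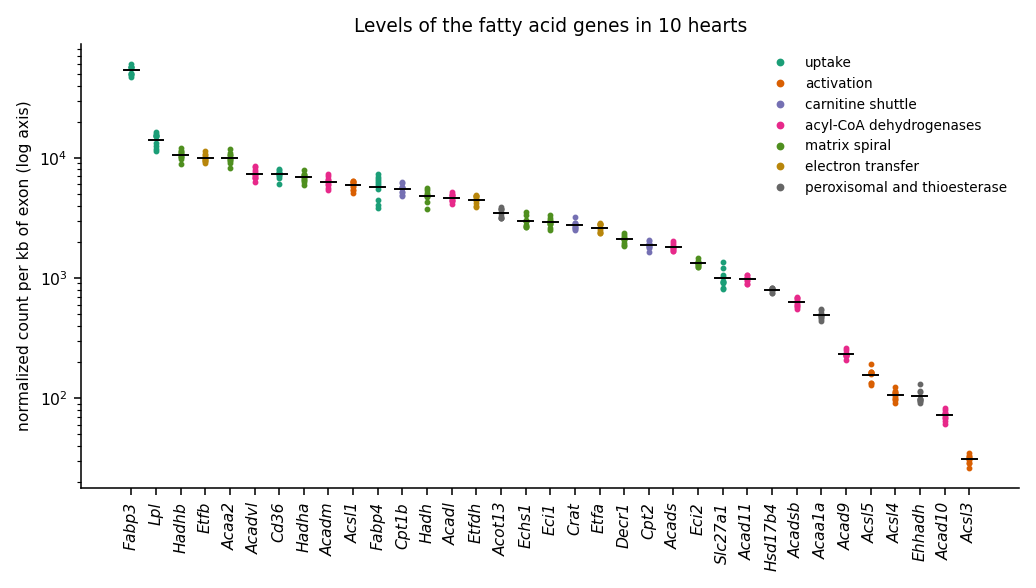
Normalized counts per kilobase of exon (log axis) of the 35 genes in 10 hearts, ordered by mean, with 1 point per mouse, a bar at the mean and colours for roles. Fabp3 stands above all others and Acsl3 is lowest.

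Litters were compared with genotype as a covariate, since litter is the clearest grouping in the labels besides genotype. Slc27a1 was the 1 member of 35 that DESeq2 called, beside 3.5% of 15654 tested genes, or 0.977% called lower in litter B. Its normalized counts in litter A were 3368 and 2810 in Control 1 and 2 and 3806 and 2944 in iSOD2 7 and 8. In litter B they were 2229, 2511 and 2590 in Control 3, 4 and 6 and 2641, 2551 and 2308 in iSOD2 5, 9 and 10. The 4 mice of litter A lay above the 6 of litter B, and the litters did not overlap for 4.41% of all tested genes, or 1.86% with B the lower. The log2 fold change, B over A, was −0.39 (SE 0.08, adjusted p 0.000355), and it stayed called with edgeR (adjusted p 0.0235), after removal of the length trend (−0.40, adjusted p 0.000178), with sex as a further covariate (−0.37, adjusted p 0.00202) and without any 1 mouse (−0.44 to −0.30).

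Cpt1b had a log2 difference of −0.18 between litters (adjusted p 0.0594 by DESeq2) and Acsl5 of 0.26 (adjusted p 0.0638). At an unadjusted p under 0.05 there were 8 members, 2 of them higher in litter B, beside 13% of all genes, or 7.46% higher. Of the 35 members 28 were lower in litter B (49.1% of all genes had a fold change above 0), with a median of −0.06 against −0.002 over all tested genes. The mean log2 level of the 10 cardiomyocyte markers was lower in litter B by 0.11 and that of the 10 endothelium markers was higher by 0.13 (two-sided exact permutation p 0.00476 and 0.00952, both 0.0286 adjusted over 6 lists). That of the 10 hepatocyte markers was higher in litter B by 1.63 (two-sided exact permutation p 0.0905, adjusted 0.181). Gpihbp1, the endothelial anchor of lipoprotein lipase, was higher in litter B by 0.47 (adjusted p 3.18e-07 by DESeq2), and Fabp5, another fatty acid binding protein, by 0.44 (adjusted p 0.000984). Of the genes of triglyceride storage and lipolysis, Mgll was higher in litter B by 0.33 (adjusted p 0.00162 by DESeq2). Pnpla2 went the other way (−0.23, adjusted p 0.0140 by DESeq2), under the fold threshold. Gpihbp1, Fabp5, Mgll and Pnpla2 were picked because no others of 76 further genes of lipid metabolism had an adjusted p of at most 0.05 by litter. Over all tested genes 3.5% were called by litter. The part of the cardiomyocyte, endothelium and hepatocyte markers in the litter result for Slc27a1 was not tested. In bulk tissue fewer cells of a type and less RNA per cell cannot be told apart.

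The sexes were compared with genotype as a covariate. DESeq2 called 1 member of 35, Fabp4, higher in females, beside 0.42% of 17379 tested genes, or 0.207% called higher. Its normalized counts were 2830, 2430 and 2570 in the male Control mice 1, 2 and 3, and 3886 and 3774 in the male iSOD2 mice 7 and 9. The females had 4196 and 4055 (Control 4 and 6) and 4638, 3490 and 4411 (iSOD2 5, 8 and 10). The 3 Control males were lower than the other 7 mice, and the iSOD2 males lay within the range of the females. The log2 fold change, female over male, was 0.39 (SE 0.11, adjusted p 0.0457). It was not called by edgeR (adjusted p 0.302), after removal of the length trend (0.34, adjusted p 0.0991), with litter as a further covariate (0.31, adjusted p 0.230), nor without any 1 of Control 1, 2, 3, 4 and 6 and iSOD2 5 and 10 (adjusted p up to 0.458). At an unadjusted p under 0.05 there were 9 members, 2 of them higher in females (Fabp4 and Acsl5) and 7 lower, beside 6.6% of all genes, or 2.83% higher. Of the 35 members 29 were lower in females (51% of all genes had a fold change above 0). Litter A held 3 of the 5 males and 1 of the 5 females.

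The difference between the sexes in the genotype effect was tested with an interaction term. DESeq2 gave 0 of 35 members and 0 of 17725 genes at an adjusted p of 0.05. At an unadjusted p under 0.05 there were 3 members, Fabp4, Acads and Acad11, beside 1.18% of all genes. For Fabp4 the female effect minus the male effect was −0.53 (SE 0.16, unadjusted p 0.000873, adjusted p 1.0), and the log2 ratio of iSOD2 to Control was 0.55 in males and 0.02 in females. With litter as a covariate Fabp4 was called by genotype (0.34, adjusted p 0.0409), likewise with sex and litter (0.30, 0.0289), in males alone (0.55, 9.65e-07), in litter A alone (0.49, 0.000768) and without Control 4 (0.44, 0.0220). It was not called in females alone (0.02, adjusted p 1.0), in litter B alone (0.24, 0.931), with sex as the covariate (0.28, 0.0982), with hepatocyte markers (0.24, 0.579), by edgeR (0.33, 0.310), or after removal of the length trend (0.20, 0.684).

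Fabp4 marks adipocytes as well as endothelium, so both sets of markers were read beside it. Of 10 adipocyte markers Lep and Retn had under 10 counts in all and were dropped by the filter. In normalized counts the defining genes Adipoq and Plin1 were at 0 to 5.02 and 0 to 5.06. Cidea, at 258 to 349, made up most of the summed level, which was 273 to 367 in Control and 278 to 369 in iSOD2 mice. Fabp4 correlated with the mean log2 level of endothelium markers across 10 mice at Pearson's r 0.71 (permutation p 0.0233, adjusted over 10 pairs 0.0776) and Spearman's rho 0.71 (permutation p 0.0261, adjusted 0.0870), and without Control 2 and iSOD2 10 at r 0.46. The endothelium mean differed between litters, and centred within litter r was 0.60 (permutation p 0.0677, unadjusted). Centred within genotype r was 0.74 (permutation p 0.0160, unadjusted). With the mean log2 level of adipocyte markers r was −0.07 and rho 0.13 (permutation p 0.854 and 0.735, both over 0.78 after adjustment), and r was 0.25 without iSOD2 5 and 8. In that mean every fitted marker but Cidea had at most 12.1 normalized counts in any mouse. It rests mostly on genes near the floor, so these values cannot decide whether Fabp4 follows adipocytes. The summed endothelium level was 32004 to 36868 in Control and 32021 to 36540 in iSOD2 mice.

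Across mice the 35 genes tended to move together. Of 595 pairs of members, 489 had a positive correlation over the 10 libraries, which share a depth and a size factor each. The median r was 0.39 (0.44 with values centred within genotype). The share of positive pairs among other genes was not measured, so moving together cannot be called particular to these 35. Hadha had the highest median correlation with the others (0.71) and Acsl5 the lowest (−0.41). Control 6 was the lowest of the Control mice for 22 of 35 genes and iSOD2 8 the lowest of the iSOD2 mice for 22, while Control 1 was the highest for 17 and iSOD2 7 for 21. Control 6 and iSOD2 8 are both female, and Control 1 and iSOD2 7 are both males of litter A.

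Hadha and Hadhb, which share the start region printed above, correlated at r 0.89 (permutation p 0.00084, adjusted over 10 pairs 0.0084) and rho 0.88 (permutation p 0.00152, adjusted 0.0152). The r was 0.89 without Control 6 and iSOD2 7, and 0.89 centred within genotype or within litter. Hadha also had a median r of 0.71 with the other members, and no pair of Hadha with a further gene was tested. The part of the shared start region in the correlation was not tested. The ratio of Hadhb to Hadha was 0.833 ± 0.0178 in Control and 0.835 ± 0.0469 in iSOD2 mice (SD, n = 5 each, two-sided exact permutation p 0.944). Etfa and Etfb, subunits encoded on different chromosomes, had r 0.39 and rho 0.35 (permutation p 0.272 and 0.333, adjusted 0.543 and 0.585), and r 0.18 without Control 6 and iSOD2 8.

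Acsl5 followed the hepatocyte markers, at r 0.78 (permutation p 0.00294, adjusted 0.0147) and rho 0.73 (permutation p 0.0204, adjusted 0.0870), with r 0.70 without Control 1 and iSOD2 10 and 0.69 centred within litter. Its normalized counts were 398, 418, 497, 513 and 511 in Control mice and 507, 416, 519, 507 and 605 in iSOD2 mice. The lowest and the highest values were those of Control 1 and iSOD2 10, which also held the least and the most Alb. Ehhadh, which liver makes in abundance, had its highest count, 394, in iSOD2 10 and otherwise 271 to 346. It had r 0.28 and rho 0.16 with hepatocyte markers (permutation p 0.407 and 0.654, adjusted 0.679 and 0.785), and r 0.00 without Control 1 and iSOD2 10. For Acaa1a r was 0.02 and rho 0.10 (permutation p 0.952 and 0.785, adjusted 0.952 and 0.785), and 0.02 without the same mice, but r was −0.52 centred within genotype and 0.58 centred within litter, so its direction turned with the centring. With the mean level of hepatocyte markers as a covariate the log2 fold change of Acsl5 by genotype went from 0.13 to −0.03 (adjusted p 0.887 by DESeq2), and that of Ehhadh from 0.08 to 0.04. That of Slc27a1 went from 0.08 to 0.31 and that of Cpt1b from 0.06 to 0.19 (both adjusted p 0.0737 by DESeq2).

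Acsl1 had r 0.64 and rho 0.62 with cardiomyocyte markers (permutation p 0.0499 and 0.0609, adjusted 0.125 and 0.152) and r 0.43 without Control 1 and iSOD2 7. Centred within genotype its r was 0.70 and within litter 0.82 (permutation p 0.0210 and 0.00437, both unadjusted). Cd36 had r −0.18 and rho −0.33 with endothelium markers (permutation p 0.621 and 0.351, adjusted 0.887 and 0.585), and r 0.26 without Control 2 and iSOD2 10. Lpl had r −0.05 and rho −0.21 with adipocyte markers (permutation p 0.887 and 0.557, adjusted 0.952 and 0.785), and r −0.68 without iSOD2 5 and 8. As for Fabp4, the adipocyte mean rests mostly on genes near the floor, so these values cannot decide whether Lpl follows adipocytes.

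**Figure D5:**
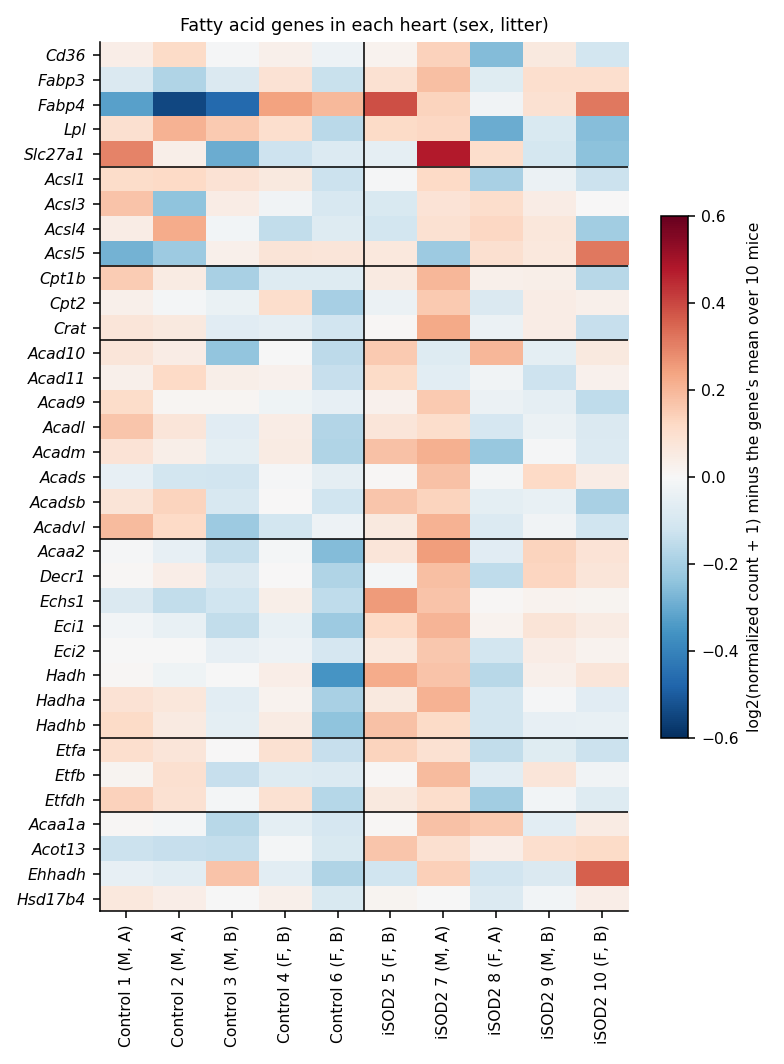
Deviation of log2(normalized count + 1) of each gene (rows, by role) in each mouse (columns, with sex and litter) from the gene's mean over 10 mice, red for higher and blue for lower. Columns such as Control 6 and iSOD2 8 are blue over most rows and iSOD2 7 is red, while Acsl5 runs against most of the rest (median r −0.41).

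Neighbouring parts of lipid metabolism were read from the same fit in 76 further genes of 9 lists. DESeq2 called 4 of the 68 with an adjusted p, 2 higher and 2 lower in iSOD2 hearts (5.88%, beside 2.96% of all tested genes), and edgeR called 0.

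Mcee, the epimerase for methylmalonyl-CoA from odd chains, rose by 0.26 on the log2 scale (adjusted p 0.0230 by DESeq2). Esrrg, an estrogen-related receptor that drives oxidative genes, changed by −0.25 (adjusted p 0.0403), and Scd2, a stearoyl-CoA desaturase, by −0.27 (adjusted p 0.00677). Scd2 fell under the fold threshold with sex as a covariate (−0.246), and with hepatocyte markers as a covariate Mcee, Esrrg and Scd2 lost their adjusted p (0.0546, 0.188 and 0.0745 by DESeq2). After removal of the length trend these 3 were not called (adjusted p 0.624, 0.267 and 0.0824). Gcdh, a dehydrogenase of lysine breakdown, passed only the adjusted p (0.23, adjusted p 0.0434).

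No gene was called among 3 of malonyl-CoA control, 6 of carnitine supply, 9 of further uptake and binding, 14 of triglyceride storage and lipolysis, and 11 of the peroxisome, all by DESeq2 and by edgeR. Their median log2 fold changes were −0.11, 0.04, 0.13, 0.04 and 0.03. Acacb, the carboxylase whose product malonyl-CoA holds back Cpt1b, had −0.14 (adjusted p 0.214), and Mlycd, the decarboxylase that removes malonyl-CoA, 0.12 (adjusted p 0.336). Dbi, the acyl-CoA binding protein, had 0.23 (adjusted p 0.0677), Lpin1, a phosphatidate phosphatase and coactivator of fat oxidation genes, −0.24 (adjusted p 0.0657), and Dgat2, which makes triglyceride, 0.20 (adjusted p 0.195). Among 9 regulators 1 was called, Esrrg. Ppara had −0.08 (adjusted p 0.739), Esrra 0.13 (0.107) and the coactivator Ppargc1b −0.30 (0.0540). Ppargc1b was called lower with litter as a covariate (−0.30, adjusted p 0.0192 by DESeq2) and with sex and litter (−0.28, 0.0326), whereas Esrrg fell under the fold threshold with litter (−0.249) and with sex (−0.21).

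Pdk4, the kinase that closes pyruvate dehydrogenase when fat is burned, had 5826 to 9233 normalized counts in Control and 2548 to 7955 in iSOD2 mice (−0.41, SE 0.30, adjusted p 0.474). Of 9 genes of branched and odd chains 1 was called, Mcee, and of 9 of fatty acid synthesis 1, Scd2.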

How the data were processed

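Total RNA libraries, depleted of ribosomal RNA, were made from the hearts of 10 mice. The authors trimmed reads, aligned them with STAR to mm10 (GRCm38) and counted exons of 1 transcript per gene with HOMER. The deposited values are estimated counts in steps of 0.5, not normalized, and the deposited table also gives exon length in another unit, base pairs. No strand option was stated, so overlapping genes are uncertain.

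Counts were rounded, and genes with under 10 counts in all were dropped, which kept 17728. Tests were Wald tests in DESeq2 1.42.0 (R 4.3.3), adjusted by Benjamini-Hochberg over all genes, with fold changes not shrunken. edgeR 4.0.16, other scalings and filters, a loess fit of library deviation on log2 exon length, covariates, single strata and leaving out each mouse were alternatives. Every pair of libraries differed beyond sampling noise (lowest chi-square per degree of freedom 5.71 of 45 pairs). The fits were tested on simulated data. Marker lists were compared over all arrangements of the mice into groups of the sizes compared (252 for genotype, fewer for litters of 4 and 6 mice). Correlations were tested with 100000 permutations in Python 3.11.15.

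Coordinates are mm10, counted from 1. All members are named. Of other lists, called genes and the 3 with the largest absolute fold change were eligible. Any other gene (Fabp5, Mgll, Pnpla2, Esrra, Ppara, Acaa1b, and markers after the first of a list) was chosen after its values were seen. Members and lists were chosen with earlier results of these data known. Each sample is a separate mouse, numbered as in the labels. The result of 1 gene of the other lists is not reported here.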

Additional observations from a re-analysis of the deposited data

Results flagged for a closer look

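Each of the 70 sets of 5 values (35 genes in 2 genotypes) was searched for a mouse far from the other 4, for which chance gives about 1 in 20 sets, or 3.5. There were 2 such values, both in Control 6, a female of litter B. Acsl1 had 20833 normalized counts there and 23718 to 24715 in the other Control mice, and Hadh had 6673 there and 8375 to 8773 in the others. Without any 1 mouse the log2 fold change by genotype ran from −0.14 to −0.06 for Acsl1 and from 0.07 to 0.19 for Hadh.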

How the results depend on the processing

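No paired analysis was possible by replicate number because Control and iSOD2 mice share none. Both genotypes had mice of litters A and B, and litter entered as a covariate instead. Members with a genotype adjusted p of at most 0.05 numbered 3. The count was 0 with edgeR, after length trend removal, in litter B and in females, 1 in litter A, 5 in males, 2 without independent filtering (Eci1 and Acot13), 4 with litter (Fabp4 added), 4 with sex and litter (Fabp4 and Acaa2 in, Echs1 out), 3 with sex or with hepatocyte markers (Acaa2 in, Echs1 out), and 1 to 6 without 1 mouse (1, Acot13, without Control 3 or 6 or iSOD2 5 or 7, 5 without iSOD2 8 and 6 without Control 4). Members called numbered 0 and became 3 with no fold threshold, 3 in males (Fabp3, Fabp4 and Acaa2), 1 with litter, with sex and litter or in litter A (Fabp4 each time), 1 with hepatocyte markers as a covariate (Acaa2), and 0 to 1 without 1 mouse. Acot13 kept an adjusted p of at most 0.05 without any 1 mouse (up to 0.0144). Eci1 lost it without Control 3 or 6 or iSOD2 5 or 7, and Echs1 without any 1 of Control 1, 2, 3 and 6 and iSOD2 5 and 7. Members called by litter numbered 1, and 1 to 3 without 1 mouse (2 without Control 3 or iSOD2 5 or 9, and 3 without iSOD2 8). With the fold threshold dropped, litter had 1 (Slc27a1), 2 with a mean of at least 50 counts or after length trend removal (Slc27a1 and Cpt1b each time), and 1 to 6 without 1 mouse (2 without Control 3, 4 without iSOD2 5, 6 without iSOD2 8 and 3 without iSOD2 9). By sex, members called and members with an adjusted p of at most 0.05 both numbered 1 (Fabp4), and both were 0 with edgeR, after length trend removal, without genotype as a covariate, with litter as a further covariate (chosen after seeing the data), and 0 to 1 without 1 mouse (0 without any 1 of the 5 Control mice or of iSOD2 5 and 10). Genes called in the other lists numbered 4, and 0 with edgeR, in litter B and in females, 1 in litter A, 2 after length trend removal, with sex, with hepatocyte markers and in males, and 1 to 5 without 1 mouse (1 without Control 2 and 2 without Control 3). Acsl5 with hepatocyte markers lost its adjusted p centred within litter (0.123). Over all pairs and settings of the correlations that was the 1 loss of an adjusted p of at most 0.05, while 2 gained one and 127 stayed the same. The cause of these shifts was not tested. The strata of 1 sex or litter hold 2 or 3 mice per arm. No result reversed among those with a call. The 95% intervals of the members reached a median of 0.14 (log2) to each side, and how much of that is counting error was not tested.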
